A study of Mus musculus with 12 samples.

Results

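Aldehyde dehydrogenases of families 3 to 18 were followed in RNA of isolated mouse islets that carried or lacked *Aldh1b1*, a gene of another family of the same enzymes. The members were chosen by gene symbol, not by a rule on their values, though with earlier results of these data known. Of the 10 listed genes, 9 were found among the 18351 genes of the deposited table (*Aldh3a2*, *Aldh3b1*, *Aldh4a1*, *Aldh5a1*, *Aldh6a1*, *Aldh7a1*, *Aldh9a1*, *Aldh16a1* and *Aldh18a1*), while *Aldh8a1* was not analysed here. All 9 passed the filter on low values in every comparison. The study compared islets of *Aldh1b1* tm1lacZ null mice, which carry a *lacZ* knock-in allele at that gene, with islets of wild-type mice at postnatal day 1 (P1) and at week 8. Each of the 4 groups had 3 libraries. At P1 a library was made from pooled islets of 3 mice, and at week 8 from a single mouse. Before RNA was taken all islets, null and wild-type, were kept for 2 h in RPMI-1640 medium with 10% FBS. The study's methods give male mice for the islet isolations, no source used here gives the strain or says whether null and wild-type animals were littermates, and the age of the mice cannot be told apart from the pooling or from the library series.

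Aldehyde dehydrogenases oxidise reactive aldehydes to acids with NAD or NADP as the acceptor, and each family works at its own step of metabolism. Among the members, some act in mitochondria on semialdehydes that arise when lysine, valine, proline or GABA is broken down, while others clear aldehydes of fatty acids, of sphingolipids and of polyamines. *Aldh18a1* carries the family name but works in the direction of synthesis, and the ALDH16A1 protein of mammals lacks the catalytic cysteine of the other enzymes.

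The libraries held 15212080 to 29248285 reads in genes. *Aldh1b1* itself was counted first as a check of the labels. Wild-type libraries held from 40 to 121 of its reads, and the null libraries held at most 3, with 4 of 6 null libraries at 0. The tissue label was set against marker lists, of which no gene was at 0 reads in any library for the 14 beta cell and the 37 acinar markers. The acinar markers, genes of the digestive enzyme cells that surround islets, took 2.25% to 6.98% of the reads in P1 wild-type islets, 11.4% to 26.5% in P1 null islets, 50.3% to 56.5% in week 8 wild-type islets and 13.1% to 24.8% in week 8 null islets. The beta cell markers took 4.67% to 7.55%, 1.28% to 3.04%, 2.63% to 5.22% and 11.9% to 13.7% in the same order. Groups compared below therefore also differed in these shares, and in bulk RNA fewer cells of a type and less RNA per cell cannot be told apart. P1 wild-type replicate 1 stood apart from the other libraries in how its values related to gene length (Spearman's rho of its deviation with length -0.479, against -0.164 to 0.262 for the others).

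The promoters of 3 members that changed between null and wild-type islets at week 8 are printed here. Of these, *Aldh6a1* and *Aldh4a1* fell and *Aldh5a1* rose. *Aldh7a1* and *Aldh16a1* also fell and are not printed, and *Aldh7a1* had no matched promoter entry. Each line holds the 250 bases before the RefSeq start on the GRCm38.p6 build, read 5′ to 3′ on the strand of the gene, and capitals mark the CCAAT box (CCAAT, or ATTGG where the motif lies on the opposite strand). *Aldh6a1* is shown from chr12:84451025-84451274 on the minus strand, *Aldh4a1* from chr4:139622644-139622893 on the plus strand and *Aldh5a1* from chr13:24937662-24937911 on the minus strand.
Aldh6a1: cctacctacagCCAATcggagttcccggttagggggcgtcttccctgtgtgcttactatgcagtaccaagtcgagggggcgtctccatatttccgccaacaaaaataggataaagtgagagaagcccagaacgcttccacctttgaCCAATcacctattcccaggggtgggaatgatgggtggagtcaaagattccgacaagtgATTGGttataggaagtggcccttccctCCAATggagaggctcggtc
Aldh4a1: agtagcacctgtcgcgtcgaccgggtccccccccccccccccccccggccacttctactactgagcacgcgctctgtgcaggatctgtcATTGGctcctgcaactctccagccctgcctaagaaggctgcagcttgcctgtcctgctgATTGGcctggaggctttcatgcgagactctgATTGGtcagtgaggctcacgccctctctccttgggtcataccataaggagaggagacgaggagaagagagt
Aldh5a1: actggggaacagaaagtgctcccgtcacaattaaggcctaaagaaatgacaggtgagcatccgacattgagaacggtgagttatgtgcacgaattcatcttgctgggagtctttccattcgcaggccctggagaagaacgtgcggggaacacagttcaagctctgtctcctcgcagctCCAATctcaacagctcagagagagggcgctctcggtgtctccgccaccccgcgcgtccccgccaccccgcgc

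The upstream window of *Aldh6a1* held 4 CCAAT boxes, that of *Aldh4a1* held 3 and that of *Aldh5a1* held 1. An entry was matched for 8 of the 9 members, and 6 of these 8 windows had at least 1 CCAAT box, against 33.8% of 32817 promoter windows of the same length. *Aldh3a2*, *Aldh9a1* and *Aldh16a1* had 1 each, and *Aldh18a1* and *Aldh3b1* had none. *Aldh16a1*, which fell at week 8, thus held as many as *Aldh5a1*, which rose, and a link of box number to direction was not tested. The GC box (GGGCGG on either strand) was found in *Aldh16a1*, with 4 matches, in *Aldh3b1*, with 2, and in *Aldh3a2* and *Aldh18a1*, with 1 each, against 32.7% of all windows. The E-box CACGTG was found once in *Aldh3a2* and once in *Aldh18a1* (6.02% of all windows), and no member had TATAAA (12.4% of all windows). None of these 4 motifs contains another, and a match is a description of the sequence alone.

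On the GRCm38 build the *Aldh9a1* gene spans chr1:167349991-167368532, *Aldh3a2* spans chr11:61223417-61267464, *Aldh16a1* spans chr7:45140684-45154584 and the pair on chromosome 19, *Aldh3b1* and *Aldh18a1*, span chr19:3913491-3929808 and chr19:40550257-40588463. The gene bodies of *Aldh4a1*, *Aldh5a1* and *Aldh6a1* lie at chr4:139622866-139649690 (so that the printed window ends just inside the gene), chr13:24907579-24937661 and chr12:84430717-84451004. Several members share exonic bases with a neighbouring gene in the annotation. *Aldh6a1* shares 1078 exonic bases with *Bbof1* on the opposite strand, whose mean normalised count stayed between 35.1 and 61.7 in the 4 groups. *Aldh16a1* shares 149 with *Pih1d1*, *Aldh7a1* shares 300 with *Phax* and *Aldh5a1* shares 203 with the lncRNA *9330162012Rik* and 796 with the antisense gene *4932702P03Rik*, all on the opposite strand. *Aldh4a1* shares 1595 exonic bases with *Gm21969*, a protein-coding gene on the same strand that had no row in the deposited table. The libraries were strand-specific, but the strand setting of the counting is not given in the sources used here, so reads in the shared bases are uncertain.

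Levels of different genes were compared as normalised counts per kilobase of the length deposited with each gene. In P1 wild-type islets *Aldh9a1* was at 427 ± 51.6 (SD, n = 3) and *Aldh18a1* at 348 ± 44.5, and the values of these 2 genes overlapped. *Aldh6a1* at 193 ± 44.6, *Aldh3a2* at 137 ± 19.9 and *Aldh7a1* at 128 ± 22.5 followed, each overlapping its neighbour. *Aldh5a1* at 94.0 ± 11.4, *Aldh4a1* at 77.7 ± 1.78, *Aldh16a1* at 50.8 ± 3.92 and *Aldh3b1* at 32.5 ± 1.64 came last without overlap between neighbours. In week 8 wild-type islets *Aldh18a1* led at 716 ± 119 per kilobase, and *Aldh7a1* at 561 ± 65.7 had moved from rank 5 to rank 2, next to *Aldh9a1* at 493 ± 49.9 and *Aldh6a1* at 423 ± 46.4. The values of these 4 genes overlapped from one to the next, and all lay above *Aldh3a2* at 191 ± 5.95, *Aldh4a1* at 139 ± 13.8, *Aldh5a1* at 72.8 ± 5.24, *Aldh16a1* at 56.6 ± 8.12 and *Aldh3b1* at 29.3 ± 6.42.

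In both groups of null islets *Aldh18a1* and *Aldh9a1* stood at the top with overlapping values per kilobase, at 505 ± 149 and 462 ± 25.5 (SD, n = 3) at P1 and at 637 ± 112 and 614 ± 21.8 at week 8. *Aldh7a1* was at rank 3 in P1 null islets at 236 ± 48.6 and at rank 5 in week 8 null islets at 183 ± 46.3, where *Aldh3a2* (210 ± 18.8) and *Aldh6a1* (185 ± 52.2) overlapped it. *Aldh3b1* was last in each group, and its level overlapped that of *Aldh16a1* (34.7 ± 3.09) in week 8 null islets. Summed over the 9 members, the level per kilobase ran from 1328 to 1572 in P1 wild-type libraries, from 1590 to 1925 in P1 null libraries, from 2517 to 2907 in week 8 wild-type libraries and from 2076 to 2175 in week 8 null libraries. None of these 4 ranges overlapped another.

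The order of *Aldh6a1* rests on the length used. Its deposited length is 3527 bases, while the exons of the GENCODE annotation cover 5784, or 1.64 times as many. Per kilobase of the annotated exons, an alternative chosen after seeing the data, its level was 118 ± 27.2 (SD, n = 3) in P1 wild-type islets, below *Aldh3a2* and *Aldh7a1* and overlapping both. In the same units it was 258 ± 28.3 in week 8 wild-type islets, where *Aldh9a1* at 413 ± 41.8 overlapped neither it nor *Aldh7a1*, and 113 ± 31.8 in week 8 null islets, below *Aldh5a1* with overlap. *Aldh7a1* then stood at rank 4 in place of rank 5 in P1 wild-type islets and in week 8 null islets. The summed levels of the 4 groups again did not overlap, though P1 wild-type libraries reached 1412 and P1 null libraries began at 1417.

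**Figure D1:**
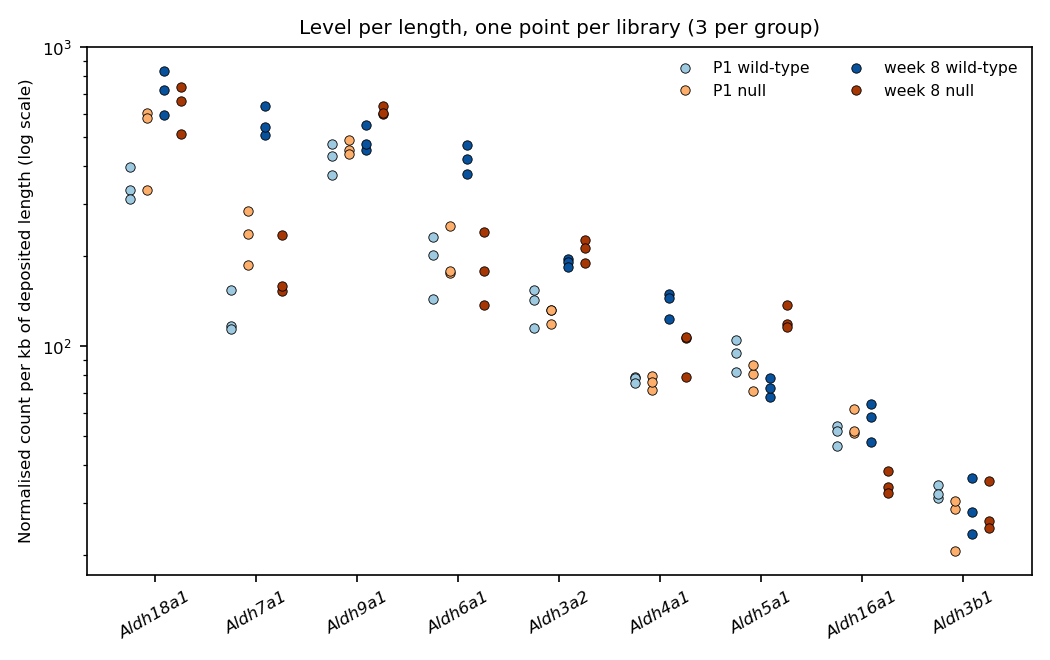
Normalised count per kilobase of deposited gene length for each member, on a log axis, with 1 point per library and 3 libraries in each of the 4 groups, members ordered by their week 8 wild-type mean. *Aldh18a1* and *Aldh9a1* stay above 300 in all libraries, *Aldh3b1* has the lowest mean in each group, and *Aldh7a1* and *Aldh6a1* pass 300 in the week 8 wild-type libraries alone.

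At week 8, 5 of the 9 members differed between null and wild-type islets by limma (trend, on log2 of the normalised count + 1, Benjamini-Hochberg adjusted p under 0.05 over all genes tested). *Aldh7a1*, *Aldh6a1*, *Aldh16a1* and *Aldh4a1* fell in null islets and *Aldh5a1* rose. Of all 18126 genes tested 28.1% passed, 12.3% as higher and 15.8% as lower, against 1 of 9 members as higher and 4 of 9 as lower. Among genes with a mean of at least 50, as all members had, 4695 of 12559 passed, 2270 as higher and 2425 as lower. In that fit 2 members passed as higher and 4 as lower. The median log2 fold change of the members was -0.17 and that of all genes 0.020. Values of the 3 null libraries lay wholly outside those of the 3 wild-type libraries for 6 members, 2 above and 4 below, against 43.6% of all genes (21.5% above and 22.1% below). Without wild-type replicate 3 or without null animal MUT229 the count of members was 3, and the count over all genes, 5094, was 2676 without wild-type replicate 3, 3168 without MUT218 and 3126 without MUT229.

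The members of lysine and valine breakdown had the largest changes among the 9. *Aldh7a1* encodes the enzyme that oxidises aminoadipic semialdehyde, an intermediate of lysine breakdown. Its normalised counts were 2629, 2802 and 3286 in the 3 week 8 wild-type libraries and 793, 1224 and 825 in null mice MUT218, MUT219 and MUT229. No null animal came near the lowest wild-type library, and null animal MUT219 was the highest of its group. The log2 fold change was -1.64 ± 0.17 (SE, limma adjusted p = 0.000423), a null level 0.321 times that of wild-type. The call held in each fit run, with log2 fold changes from -1.84 to -1.52 when 1 library was left out.

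*Aldh6a1* encodes methylmalonate-semialdehyde dehydrogenase, which acts late in the breakdown of valine and of thymine. Normalised counts were 1331, 1491 and 1659 in week 8 wild-type libraries and 485, 850 and 628 in null mice MUT218, MUT219 and MUT229. The groups did not overlap, and the order of the null animals put MUT219 highest, as for *Aldh7a1*. Its log2 fold change was -1.22 ± 0.19 (SE, limma adjusted p = 0.00167), a null level 0.429 times that of wild-type.

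*Aldh4a1* encodes the dehydrogenase that turns pyrroline-5-carboxylate into glutamate in proline breakdown, and *Aldh18a1* encodes the synthase that makes pyrroline-5-carboxylate from glutamate. *Aldh4a1* counts were 605, 732 and 710 in week 8 wild-type libraries and 524, 526 and 386 in null mice MUT218, MUT219 and MUT229. No values overlapped, though the lowest wild-type library was close to the highest null animals. A log2 fold change was fitted of -0.52 ± 0.16 (SE, limma adjusted p = 0.0319). The call was lost without wild-type replicate 2 (limma adjusted p = 0.0508), wild-type replicate 3 (0.113), null animal MUT218 (0.0514) or null animal MUT229 (0.134).

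*Aldh18a1* counts at week 8 were 2929, 2421 and 3393 in wild-type libraries and 2989, 2092 and 2699 in null mice MUT218, MUT219 and MUT229. The groups overlapped across most of their range. The log2 fold change was -0.17 (95% interval -0.54 to 0.20, limma adjusted p = 0.477), so a fall or a rise within that interval remained possible. At week 8 the gene of proline synthesis thus gave no call while that of proline breakdown fell, and the difference between the 2 genes was not tested.

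*Aldh5a1* encodes succinic semialdehyde dehydrogenase, the last enzyme of the GABA shunt, a route that beta cells, which make GABA, share with neurons. Its normalised counts were 383, 442 and 409 in week 8 wild-type libraries and 670, 657 and 775 in null mice MUT218, MUT219 and MUT229. All null animals were above all wild-type libraries, with a wide gap between the groups. Its log2 fold change was 0.77 ± 0.13 (SE, limma adjusted p = 0.00238), a null level 1.70 times that of wild-type, and it was the member that passed as higher. Left-out libraries moved the log2 fold change between 0.69 and 0.82, and the call held in each fit run.

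*Aldh16a1* encodes the non-catalytic member. Normalised counts were 264, 318 and 352 in week 8 wild-type libraries and 186, 210 and 177 in null mice MUT218, MUT219 and MUT229. The null animals lay close together below the wild-type libraries. The log2 fold change was -0.69 ± 0.17 (SE, limma adjusted p = 0.0128), and the call was lost without wild-type replicate 3 (limma adjusted p = 0.0679) or null animal MUT229 (0.0591). Its opposite-strand neighbour *Pih1d1* had mean week 8 counts of 266 in wild-type islets and 175 in null islets.

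The members that act on fatty and polyamine aldehydes gave no call at week 8. *Aldh9a1* encodes the dehydrogenase of trimethylaminobutyraldehyde in carnitine synthesis and of aminobutyraldehyde from polyamines. Its week 8 counts were 1286, 1555 and 1347 in wild-type libraries and 1810, 1694 and 1713 in null mice MUT218, MUT219 and MUT229. All null animals were above all wild-type libraries, but the log2 fold change of 0.32 ± 0.11 (SE) missed the threshold (limma adjusted p = 0.0586). It passed without wild-type replicate 2 (limma adjusted p = 0.0151), with a minimum mean of 50 (0.0454) and with TMM factors computed without the acinar markers (0.0293).

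*Aldh3a2* encodes fatty aldehyde dehydrogenase, the enzyme lost in human Sjögren-Larsson syndrome, and *Aldh3b1* encodes an enzyme that oxidises aldehydes from lipid peroxidation. *Aldh3a2* counts at week 8 were 1103, 1080 and 1037 in wild-type libraries and 1273, 1065 and 1201 in null mice MUT218, MUT219 and MUT229, and null animal MUT219 lay within the wild-type range. *Aldh3b1* counts were 44.2, 67.9 and 52.5 in wild-type libraries and 49.0, 66.6 and 46.3 in the same null animals, with overlapping groups. For *Aldh3a2* the log2 fold change was 0.13 (95% interval -0.12 to 0.38, limma adjusted p = 0.417). That of *Aldh3b1* was -0.020 (95% interval -0.66 to 0.62, limma adjusted p = 0.967), the widest interval of the 9 at week 8, from 30 to 73 reads a library, and its direction turned to 0.045 with TMM factors computed without the acinar markers.

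**Figure D2:**
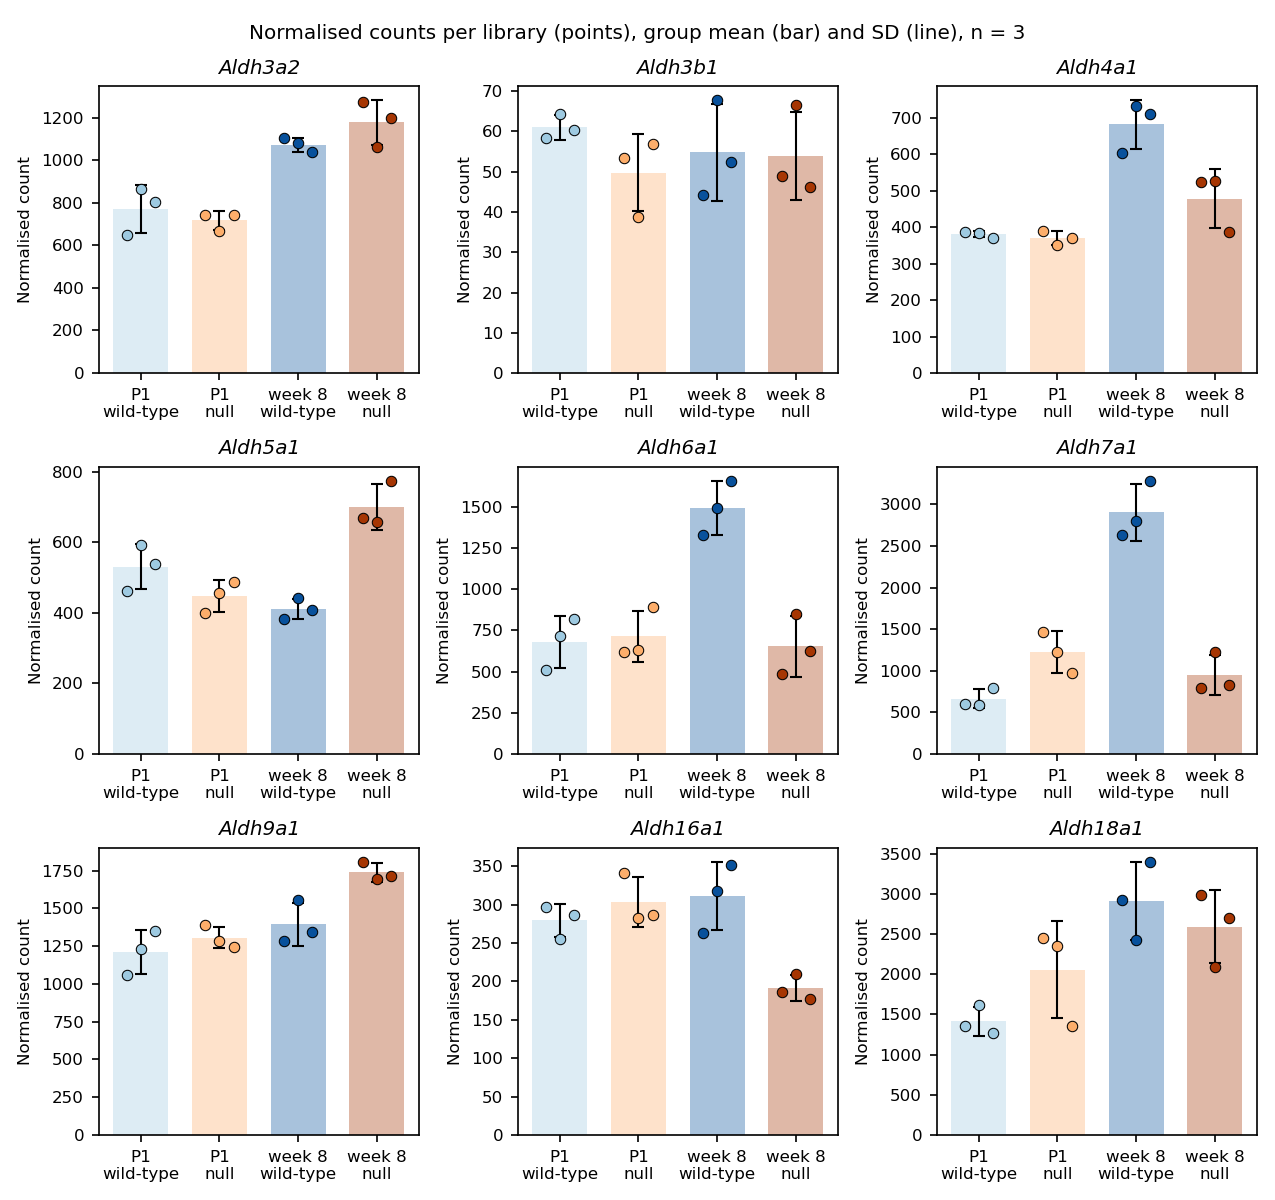
Normalised counts of each member, 1 panel per gene with its own axis from 0, points for the 3 libraries of each group, bars for the group mean and lines for the SD. At week 8 the null points of *Aldh7a1*, *Aldh6a1*, *Aldh16a1* and *Aldh4a1* lie below the wild-type points, and those of *Aldh5a1* and *Aldh9a1* lie above.

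At P1, 0 of the 9 members passed by limma, where 0.0658% of 18235 genes passed (0.0548% higher and 0.011% lower, 12 genes in all). At an unadjusted p under 0.05 there were 1 of 9 members and 2730 genes, 15% of those tested. By edgeR 0 members and 18 genes (0.0987%) passed, and by DESeq2 1 member and 602 of 16570 genes with an adjusted p (3.63%). *Aldh7a1* lay wholly above wild-type in P1 null islets and *Aldh3b1* wholly below, 2 of 9 members against 23.6% of all genes (12.7% above and 10.9% below). Without P1 wild-type replicate 1, the library that stood apart, 0 members and 245 genes passed. The count over all genes was 79 without wild-type replicate 3, 194 without null replicate 3 and 0 without any 1 of the other P1 libraries, again with 0 members.

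*Aldh7a1* counts at P1 were 604, 591 and 799 in wild-type replicates 1 to 3 and 1472, 1227 and 969 in null replicates 1 to 3. The null libraries were all above the wild-type libraries, the opposite of the order at week 8. The log2 fold change was 0.87 ± 0.20 (SE, limma adjusted p = 0.129), and the gene was called by DESeq2 (adjusted p = 0.0107). *Aldh18a1* counts were 1356, 1618 and 1270 in wild-type and 2455, 2354 and 1359 in null libraries, where null replicate 3 fell within the wild-type range. Its log2 fold change was 0.50 ± 0.23 (SE, limma adjusted p = 0.357), and 0.77 without null replicate 3.

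*Aldh3b1* counts at P1 were 58.4, 64.4 and 60.3 in wild-type and 53.5, 38.9 and 56.8 in null libraries, a log2 difference of -0.31 ± 0.26 (SE, limma adjusted p = 0.590). *Aldh5a1* counts were 463, 591 and 537 in wild-type and 399, 457 and 489 in null libraries, with overlap and a log2 difference of -0.24 ± 0.17 (SE, limma adjusted p = 0.521). The groups of the other 5 members also overlapped, and their log2 fold changes ran from -0.096 for *Aldh3a2* to 0.12 for *Aldh9a1* and *Aldh16a1*. Of these, the value of *Aldh6a1*, 0.077, turned to -0.12 without wild-type replicate 1 and to -0.093 without null replicate 3.

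**Figure D3:**
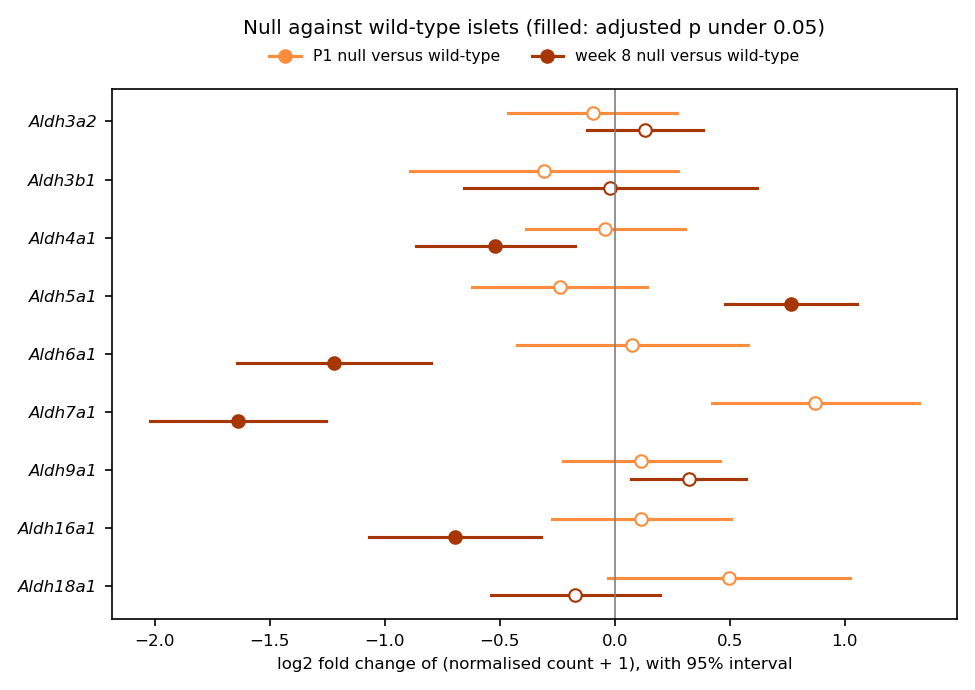
Log2 fold change of null against wild-type islets for each member at P1 and at week 8, with 95% intervals from limma, and filled circles for an adjusted p under 0.05 (vertical line at 0). At P1 all circles are open and *Aldh7a1* stands farthest to the right, while at week 8 *Aldh7a1* and *Aldh6a1* stand farthest to the left.

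Whether the null effect differed between the ages was tested as an interaction in 1 fit of all 12 libraries, in which 21.8% of genes passed (8.2% with a higher and 13.6% with a lower effect at week 8 than at P1). Of the 9 members, 4 passed. The null effect of *Aldh7a1* was lower at week 8 by a log2 difference of -2.51 ± 0.28 (SE, limma adjusted p = 0.000116), that of *Aldh6a1* by -1.30 ± 0.32 (0.00971) and that of *Aldh16a1* by -0.81 ± 0.23 (0.0235). The null effect of *Aldh5a1* was higher by 1.01 ± 0.21 (limma adjusted p = 0.00387). The *Aldh16a1* call was lost without P1 wild-type replicate 2 (limma adjusted p = 0.0556), P1 null replicate 1 (0.0721), week 8 wild-type replicate 3 (0.0707), null animal MUT218 (0.0536) or null animal MUT229 (0.0611). *Aldh18a1*, at -0.67 ± 0.31 (limma adjusted p = 0.142), passed without P1 null replicate 3 (0.0187).

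Between P1 and week 8 in wild-type islets, 5 of the 9 members rose and no member passed as lower, where 32.6% of 18338 genes passed (15.9% higher and 16.8% lower). The median of the members was 0.48 and that of all genes -0.019. *Aldh7a1* rose by a log2 fold change of 2.13 ± 0.20 (SE, limma adjusted p = 3.04e-06), or 4.39 times, from counts of 591 to 799 at P1. *Aldh6a1* rose by 1.16 ± 0.22 (limma adjusted p = 0.0012), *Aldh18a1* by 1.04 ± 0.22 (0.00229), *Aldh4a1* by 0.83 ± 0.15 (0.00079) and *Aldh3a2* by 0.48 ± 0.14 (0.0144). With the 6 wild-type libraries alone *Aldh3a2* missed the threshold (limma adjusted p = 0.0712). *Aldh5a1* was at -0.36 ± 0.15 (unadjusted p = 0.0264, limma adjusted p = 0.0722), and passed as lower without P1 wild-type replicate 1 (0.0172).

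In null islets 3 members rose with age and 1 fell, where 46.7% of genes passed (21.2% higher and 25.5% lower). *Aldh3a2* rose by a log2 fold change of 0.71 ± 0.14 (SE, limma adjusted p = 0.000679), *Aldh5a1* by 0.64 ± 0.15 (0.00234) and *Aldh9a1* by 0.41 ± 0.13 (0.0182), and *Aldh16a1* fell by 0.66 ± 0.17 (0.00444). *Aldh3a2* is the gene that passed as higher in both genotypes. *Aldh7a1* gave -0.38 ± 0.20 (limma adjusted p = 0.136) and *Aldh6a1* gave -0.14 ± 0.22 (0.631), beside their rise in wild-type islets. The *Aldh9a1* call was lost without P1 null replicate 2 (limma adjusted p = 0.0582), P1 null replicate 3 (0.0573) or null animal MUT218 (0.0634). *Aldh7a1* passed as lower without null animal MUT219 (0.0312). *Aldh4a1*, at 0.35 ± 0.15 (limma adjusted p = 0.0693), passed without P1 wild-type replicate 1 (0.0419) and without null animal MUT229 (0.0211), and by edgeR (0.0406) and DESeq2 (0.0403). It also passed with TMM factors (limma adjusted p = 0.0474) and with TMM factors computed without the acinar markers (0.0307). The age comparisons and the genotype comparisons use the same libraries, so they are not independent of each other.

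**Figure D4:**
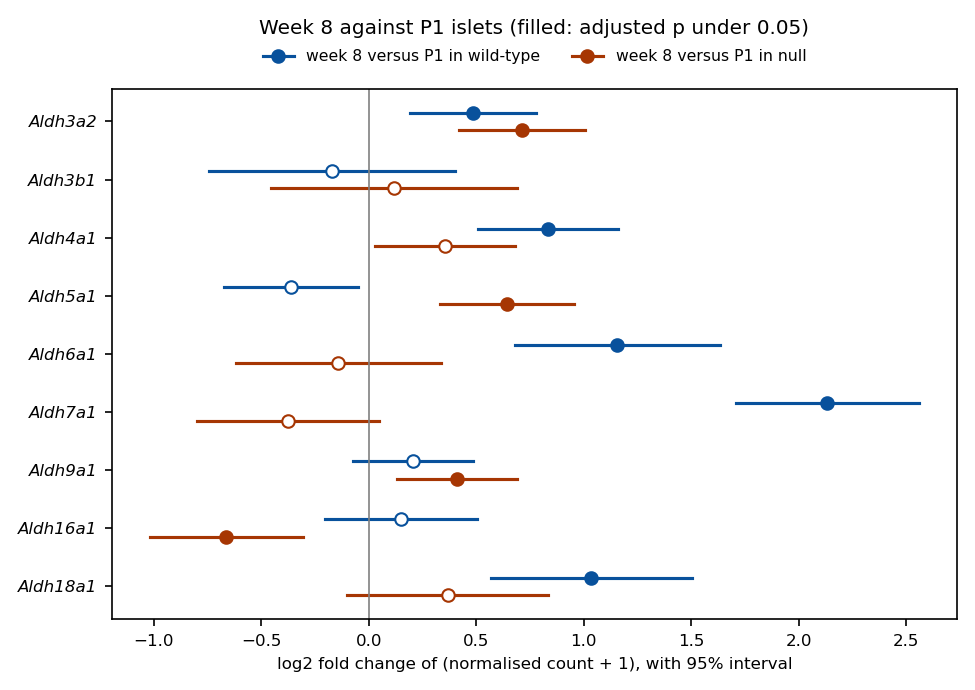
Log2 fold change of week 8 against P1 islets for each member in wild-type and in null mice, with 95% intervals from limma, and filled circles for an adjusted p under 0.05 (vertical line at 0). *Aldh7a1*, *Aldh6a1* and *Aldh18a1* lie to the right of 1 in wild-type islets and have open circles in null islets, and *Aldh5a1* is filled in null islets alone.

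The share of acinar markers moved with several of these values over the 12 libraries. Within groups it did so clearly for *Aldh7a1* alone, and the other members had the same order in 3 (*Aldh5a1*) to 8 (*Aldh16a1*) of 12 pairs. *Aldh7a1* was higher in the library with the higher acinar share in 61 of the 66 pairs of libraries, and in 11 of the 12 pairs drawn within a group. The same order was seen in 50 of 66 pairs for *Aldh4a1* and for *Aldh18a1*, in 47 for *Aldh6a1* and in 40 for *Aldh16a1*, and among the 12 pairs within groups in 6, 6, 7 and 8 of them, in the same order of genes. For *Aldh5a1* it was seen in 19 of 66 pairs, while its order followed that of the beta cell markers in 53 of 66 pairs and in 7 of 12 within groups. For *Aldh3a2*, *Aldh9a1* and *Aldh3b1* the acinar order was seen in 40, 39 and 25 of 66 pairs, and in 4, 6 and 5 of 12 within groups. The beta cell order was seen for these genes in 46, 43 and 41 of 66 pairs, and in 6, 6 and 5 of 12 within groups. For the remaining members it was seen in 18 (*Aldh16a1*) to 36 (*Aldh4a1*) of 66 pairs. Pairs share libraries and groups, so these counts are a description of the 12 libraries, and none was tested. Pair counts were not made for all genes, so no share over all genes stands beside them. Within the week 8 null group, animal MUT219 had the highest acinar share, 24.8%, with the highest *Aldh7a1* and *Aldh6a1* counts and the lowest *Aldh18a1* count. The P1 null replicate 3 had the lowest acinar share of its group, 11.4%, with the lowest *Aldh7a1* and *Aldh18a1* counts and the highest *Aldh6a1* count. The acinar shares of the P1 null and week 8 null groups overlapped, and their beta cell shares did not.

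The part of these shares in the member results was not tested. TMM factors computed without the acinar markers rescale the libraries and leave a gene's own counts as they were. With them the same number of members fell at week 8, 4, and 2 passed as higher. Over all 18165 genes tested in that fit, 2854 passed as higher and 2619 as lower, against 2234 and 2860 of 18126 in the main fit. The median log2 fold change of all genes was 0.084 there and 0.020 in the main fit.

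**Figure D5:**
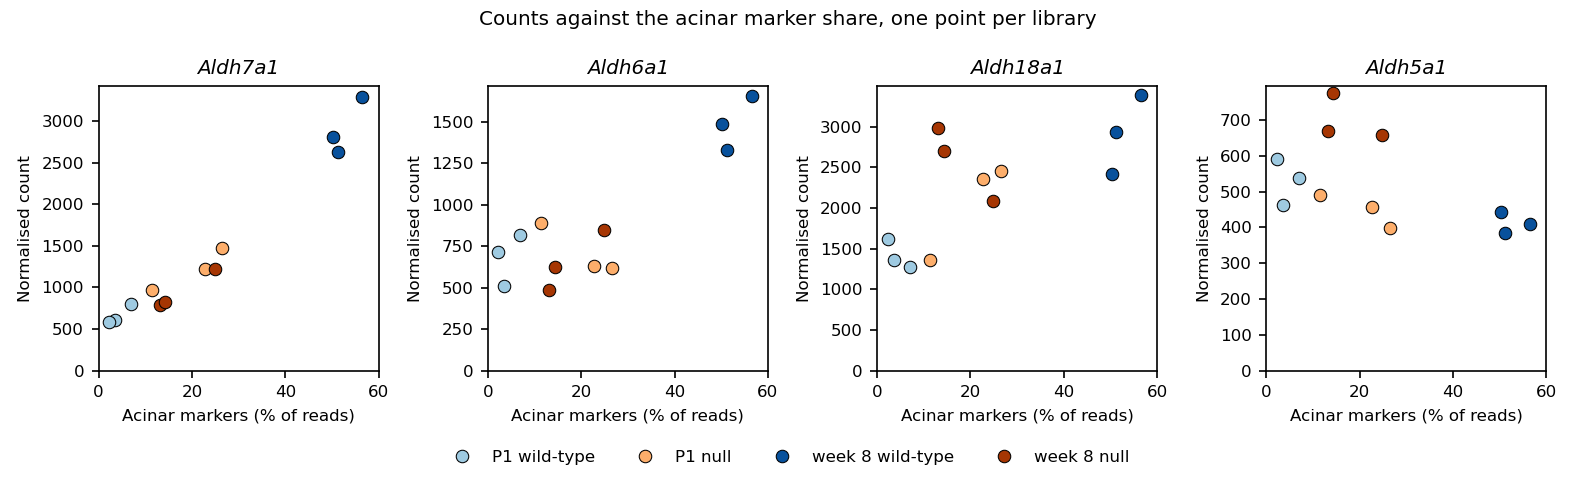
Normalised count of 4 members against the percent of reads in the 37 acinar markers, 1 point per library and a colour for each of the 4 groups. *Aldh7a1* is higher in the library with the higher share in 61 of 66 pairs, *Aldh6a1* is high in the 3 libraries above 50% and lies between 485 and 890 in the others, and *Aldh5a1* is highest in the week 8 null libraries.

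Other genes of the pathways in which the members act were counted from 7 lists with 65 genes tested at week 8, of which 11 rose and 26 fell in null islets, beside 12.3% and 15.8% of all genes. With 1 library left out, between 4 and 12 rose and between 17 and 25 fell, the fewest without wild-type replicate 3 (4 and 17) and without MUT229 (6 and 17), and 7 rose without MUT218. In the valine and propionate list, 2 of 17 genes rose and 7 fell, the same direction as *Aldh6a1* for the larger number. *Bcat2*, the mitochondrial aminotransferase that starts branched-chain amino acid breakdown, had mean counts of 3066 ± 454 (SD, n = 3) in wild-type against 891 ± 224 in null islets (log2 fold change -1.80 ± 0.18, SE, limma adjusted p = 0.000388). *Bckdha*, a subunit of the branched-chain ketoacid dehydrogenase, changed by -1.20 ± 0.13 (limma adjusted p = 0.000469). *Mmab* and *Mmaa*, which prepare cobalamin for methylmalonyl-CoA mutase, rose by 0.60 ± 0.18 (0.0297) and 0.52 ± 0.17 (0.0436), and without any 1 of wild-type replicates 1 or 3 or of the null animals no gene of the list passed as higher.

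In the lysine list 4 of 8 genes fell beside *Aldh7a1*. *Aass*, the bifunctional enzyme that makes the substrate of ALDH7A1, had counts of 479 ± 108 (SD, n = 3) in wild-type against 119 ± 45.7 in null islets (log2 fold change -2.05 ± 0.27, SE, limma adjusted p = 0.000896). *Gcdh*, glutaryl-CoA dehydrogenase further down the same pathway, changed by -0.73 ± 0.18 (limma adjusted p = 0.0137). The count of this list was 1 without wild-type replicate 3, null animal MUT218 or null animal MUT229.

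In the proline and ornithine list 4 of 9 genes fell. *Prodh*, proline dehydrogenase, which feeds the step of ALDH4A1, had counts of 343 ± 65.0 (SD, n = 3) in wild-type against 65.2 ± 35.8 in null islets (log2 fold change -2.49 ± 0.33, SE, limma adjusted p = 0.000846). *Pycr1*, which makes proline from pyrroline-5-carboxylate, changed by -1.25 ± 0.14 (limma adjusted p = 0.000515). Genes of proline breakdown and of proline synthesis were thus both among those that fell.

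In the GABA list 2 of 3 genes rose, as did *Aldh5a1*. *Gad1*, a glutamate decarboxylase that makes GABA, had counts of 1396 ± 590 (SD, n = 3) in wild-type against 2983 ± 204 in null islets (log2 fold change 1.17 ± 0.23, SE, limma adjusted p = 0.00531). *Abat*, GABA transaminase, which makes the substrate of ALDH5A1, rose by 0.75 ± 0.14 (limma adjusted p = 0.0033). Of the carnitine, choline and polyamine list, 1 of 8 genes rose and 6 fell. *Maob*, monoamine oxidase B, rose by 1.04 ± 0.16 (limma adjusted p = 0.00182), while *Chdh*, choline dehydrogenase, and *Smox*, spermine oxidase, changed by -2.98 ± 0.31 (0.000418) and -1.39 ± 0.13 (0.000308).

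In the fatty aldehyde and sphingosine phosphate list 6 of 13 genes rose and 3 fell. *Sgpp2*, a sphingosine phosphate phosphatase, rose by 1.03 ± 0.14 (SE, limma adjusted p = 0.000923) and *Asah1*, acid ceramidase, by 0.62 ± 0.14 (0.01). *Sphk1*, sphingosine kinase, and *Agmo*, alkylglycerol monooxygenase, changed by -2.30 ± 0.35 (limma adjusted p = 0.00148) and -2.08 ± 0.47 (0.00959). The number that rose was 1 without wild-type replicate 3 and 3 without MUT229. In the kynurenine list, to which the step of the unanalysed *Aldh8a1* belongs, 2 of 7 genes fell, the kynurenine aminotransferases *Ccbl1* at -0.57 ± 0.17 (limma adjusted p = 0.033) and *Ccbl2* at -0.76 ± 0.18 (0.0121), and no gene of it passed without wild-type replicate 3 or null animal MUT229.

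At P1, 0 of 65 pathway genes passed by limma and by edgeR. By DESeq2 3 of 63 passed, beside 3.63% of all genes, and 17 of 65 had an unadjusted p under 0.05 by limma, beside 15% of all genes. Acinar markers moved beside these lists as well, with 35 of 37 lower in null islets at week 8, and 12 of 14 beta cell markers higher. Stromal markers, 9 of 9, duct markers, 9 of 13, endothelial markers, 6 of 10, and macrophage and leukocyte markers, 3 of 9, also fell at week 8. There 1 duct marker and 1 of 9 alpha cell markers rose, and 1 of 6 delta and PP cell markers fell. The part of these cell types was not tested. Among the *Aldh1* and *Aldh2* families, to which the disrupted gene belongs, 6 of 8 genes were lower in null islets at week 8, *Aldh1b1* included.

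The genes whose pattern over the 12 libraries was most like that of a member were named by Pearson's r on log2(count + 1) among 12927 genes with a mean of at least 50, as a description of libraries that share 4 groups and the acinar share. For *Aldh7a1* these were *Ggt1* (r = 0.99) and *Slc16a5* (0.99), a glutamyltransferase and a transporter of the monocarboxylate family. For *Aldh6a1* they were *Aldh2* (0.96), a mitochondrial acetaldehyde dehydrogenase, and *Acss1* (0.95), a mitochondrial acetyl-CoA synthetase. For *Aldh18a1* they were *Mars* (0.96), a methionyl-tRNA synthetase, and *2010300C02Rik* (0.95). For *Aldh4a1* they were *Naprt1* (0.97), of NAD synthesis, and *Gm20441* (0.96).

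For *Aldh5a1* the closest were *Satb1* (r = 0.97), a chromatin organiser, and *Irs1* (0.96), an insulin receptor substrate. For *Aldh16a1* they were *Naa10* (0.98), an amino-terminal acetyltransferase, and *Top1mt* (0.97), a mitochondrial topoisomerase. *Aldh3a2* was closest to *Ezh1* (0.98) and *Zbtb4* (0.98), *Aldh9a1* to *Tmx4* (0.96) and *Nbn* (0.96), and *Aldh3b1* to *Slc12a9* (0.89) and *BC053749* (0.86), the lowest likeness of the 9. Among the members themselves, the pair with the lowest r was *Aldh5a1* and *Aldh16a1* (-0.88), and the pair with the highest was *Aldh6a1* and *Aldh7a1* (0.85).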

How the data were processed

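RNA-Seq values of islets were taken from 1 deposited table of 18351 genes and 12 libraries (strand-specific poly(A) libraries, 75-base single reads). The authors counted reads per gene and divided the counts by a size factor per library (DESeq 1.10.1). The submitters' processing notes name DESeq, bedtools 2.11 and mm9, and the annotation was Ensembl release 67. For the aligner and the counting options, the sources used here give none. The deposited values are thus a size-factor-normalised signal per gene, here called normalised counts. All values were whole multiples of 1 read within 0.001, so whole reads were recovered. The authors' own comparison columns (means, fold changes, p-values) were not used. The length deposited with each gene gave levels per kilobase.

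The test was that of limma 3.58.1 with a trend, run in R 4.3.3 for genes with a mean of at least 1 on log2(value + 1), which understates changes of low genes, within each age on 6 libraries and across ages on all 12. Alternatives were pseudocounts of 0.1 and 10, no filter or a mean of at least 50, TMM factors with and without acinar markers, edgeR 4.0.16 and DESeq2 1.42.0 on the whole reads, a threshold of 0.1, other sets of libraries in the fit, a replicate block, leaving out each library and, for levels and added after seeing the data, the exonic bases of GENCODE M21 as the length. The limma fits of null against wild-type within each age were also run on simulated counts with planted changes. Those counts held none of the marker share differences between groups, so they do not cover them. No label says that libraries of a group came from separate litters, so p-values measure the spread between these samples. No library repeated another of its group (chi-square divided by its degrees of freedom at least 13.5). Members, lists and alternatives were chosen with earlier results of these data known. Every member is described. From each pathway list at most 2 higher and 2 lower genes with the smallest adjusted p at week 8 are named, of the *Aldh1* and *Aldh2* families *Aldh1b1*, and for each member the 2 genes of most similar pattern. *Aldh2* is named under the last part. Of listed pathway genes, 3 of 6 of the GABA list, 8 of 13 of the carnitine list and 7 of 11 of the kynurenine list were in the table, and all genes of the other lists. Locations came from GENCODE M21 by Ensembl ID, promoters from RefSeq by symbol. Figures were drawn with matplotlib 3.10.9 in Python 3.11.15.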

Additional observations from a re-analysis of the deposited data

Results flagged for a closer look

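For 4 of the 9 members the null effect at week 8 differed from that at P1 by the test of the difference itself (limma, 12 libraries). Of all 18338 genes tested, 21.8% passed that test. The difference was -2.51 for *Aldh7a1* (adjusted p = 0.000116), -1.30 for *Aldh6a1* (0.00971), -0.81 for *Aldh16a1* (0.0235) and 1.01 for *Aldh5a1* (0.00387), on the log2 scale. The *Aldh16a1* call was lost in several fits with 1 library left out (limma adjusted p from 0.0536 to 0.0721). *Aldh7a1* was higher in all 3 null libraries than in the wild-type libraries at P1 and lower in all 3 at week 8, and the acinar marker share of reads was ordered the same way, with 20.2% ± 7.85 (SD, n = 3) in null against 4.25% ± 2.45 in wild-type islets at P1 and 17.4% ± 6.45 against 52.7% ± 3.38 at week 8. The part of that share was not tested.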

How the results depend on the processing

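Over the 5 comparisons and all alternatives, the members' log2 fold changes kept their direction and their side of the threshold in 841 of the refits, gained a call in 16, lost one in 15 and turned sign in 10. At P1 the count over all genes, 12 with limma, was 4 with a pseudocount of 0.1, 19 with 10, 0 with a mean of at least 50, 602 by DESeq2, 116 at an adjusted p of at most 0.1 and 135 with all 12 libraries in 1 fit, and the count of members was 1 by DESeq2 and 0 in the other refits. Leaving out 1 library moved the counts over all genes from 0 to 245 at P1 and from 2676 to 6267 at week 8, and the count of members at week 8 from 3 to 5. The replicate block at P1 gave 15 genes and 0 members. Same-numbered libraries deviated together with r of 0.064, -0.037 and -0.0064, and no library correlated best with its own number. Such values cannot settle whether same-numbered libraries shared a litter or a day, which no label gives. The sign of *Aldh3b1* at week 8 turned to 0.045 with TMM without acinar markers, and ran from -0.18 to 0.14 with 1 library left out. The sign of *Aldh6a1* at P1 ran from -0.12 to 0.22, and the age effects in null islets ran from -0.35 to 0.054 for *Aldh6a1* and from -0.049 to 0.22 for *Aldh3b1*. The cause was not tested. With 2 libraries in a group the spread is estimated from the groups together. *Aldh3b1* had 30 to 92 reads a library.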
